A study of Mus musculus with 6 samples.

Results

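Genes of the fat cell and of fatty acid synthesis were followed in mammary tumours of mice that carry the PyMT transgene, a viral oncogene (polyoma middle T) that makes mammary epithelium malignant. A list of 38 genes was used, made up of 23 adipocyte markers, 13 lipogenic genes that build and store fatty acids, and 2 fatty acid carriers, Fabp3 and Cd36. A gene was measured if the platform annotation gave a probe set that symbol alone, and where several did, the probe set with the highest mean over the arrays stood for the gene. This left 34 of the 38 genes, out of 22180 measured in all: 20 adipocyte markers, 12 lipogenic genes and both carriers. Scd2 shares its probe set's annotation with a second symbol, and Cfd, Adrb3 and Acsl1 have no probe set named in that table, so these 4 were not analysed here. There were 3 tumours of SG-/- mice, which lack serglycin, and 3 tumours of SG+/- mice, which keep a functional copy of its gene. The labels do not say whether each tumour came from a different mouse. All 6 tumours were PyMT+, none was wild type for serglycin, and each was hybridised to 1 whole-transcript array. Age, strain, gland site, tumour stage and the promoter behind the transgene are not stated by the labels, which also pair no mice. The study set the genotypes against each other to look for genes under serglycin that bear on metastasis, and here the fat-cell and lipogenic genes are followed through that comparison.

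White adipocytes, which fill the mammary fat pad, store triglyceride in a single droplet coated by perilipins and CIDE proteins, take up fatty acids released by lipoprotein lipase, and secrete hormones such as adiponectin and leptin. Their gene program is driven by the nuclear receptor encoded by Pparg together with C/EBP factors. Mammary epithelial cells also make fat: they build fatty acids from citrate and acetyl-CoA through Acly, Acaca and Fasn, under the transcription factor encoded by Srebf1, and many tumours keep this pathway on. A piece of mammary tumour can therefore hold lipid genes from the tumour epithelium and from leftover fat pad.

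All values are log2 expression levels after the robust multi-array average (RMA), and differences are SG-/- minus SG+/- on that scale, so that 1 stands for a doubling of signal. Array medians lay between 6.50 and 6.73. As a floor, 1390 genes of odorant and pheromone receptors (olfactory and vomeronasal), assumed silent in tumours, averaged between 4.58 and 5.87 on the arrays, highest in SG-/- replicate 3, which also had the narrowest spread of values (interquartile range 2.56). Their 95th percentile lay between 6.42 and 8.04. Srgn, the targeted gene, was at 5.07, 5.04 and 4.89 in SG-/- tumours and at 6.76, 6.43 and 6.35 in SG+/- tumours. It was above the receptors' 95th percentile on only 1 of the 6 arrays. The series description counts nearly all of its altered genes, past a threshold of its own, as lower without serglycin. That count was not repeated here. In the values used here 317 genes were higher and 152 lower in SG-/- tumours at an unadjusted p under 0.05, 630 were higher and 708 lower without overlap, and 46.3% of all genes had a higher mean. The epithelial markers Krt8, a simple-epithelium keratin, and Epcam, an epithelial adhesion molecule, averaged 12.24 ± 0.07 and 12.11 ± 0.03 without serglycin (SG-/-, SD, n = 3), against 12.10 ± 0.04 and 12.20 ± 0.06 in the SG+/- group (SD, n = 3). In bulk tumour RNA, fewer cells of a type and less RNA per cell cannot be told apart.

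Most lipogenic genes were well above the silent receptors in every tumour, and most fat-cell markers were not. Of the 12 lipogenic genes, 10 lay above the receptors' 95th percentile on all 6 arrays, against 3 of the 20 adipocyte markers, Plin2, Pnpla2 and Ghr. Those 3 are used by many cell types: Plin2 coats lipid droplets in most tissues, Pnpla2 encodes the first lipase of stored triglyceride, and Ghr is the growth hormone receptor. Over all genes, 6904 of 22180 met the same mark. None of the 7 measured markers that are most restricted to fat cells (Adipoq, Lep, Plin1, Plin4, Retn, Cidec and Lgals12) met it. Among all 34 genes, 6 had a mean below 6.09, the 40th percentile of all probe sets: Adipoq, Lep, Cidea, Ucp1, Aqp7 and Olah. Each probe set has its own response, so comparing levels with the receptors or with all probe sets is only a rough guide to background. It does not rank genes by their amount of RNA.

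**Figure D1:**
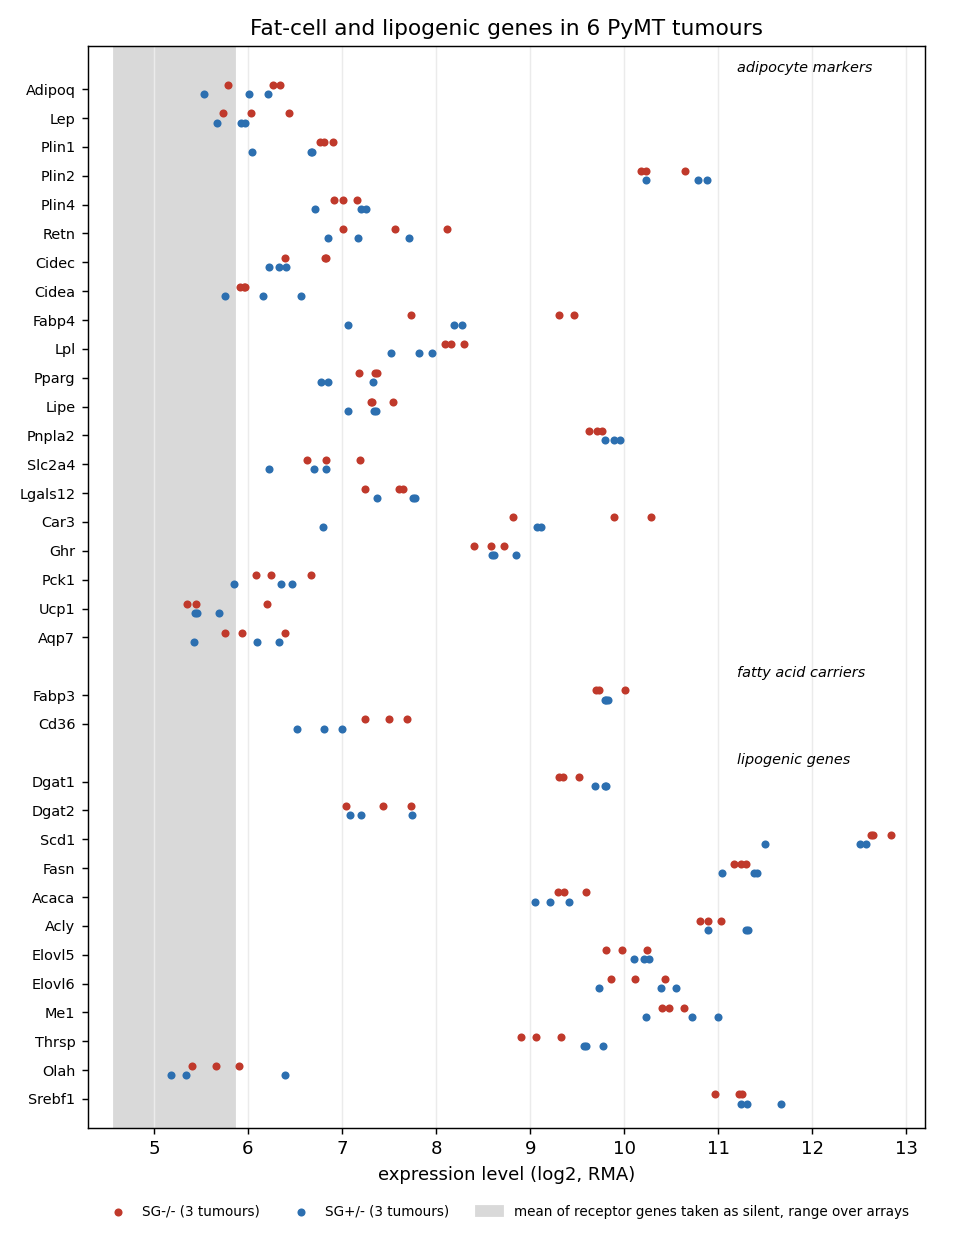
Expression level (log2, RMA) of the 34 measured genes in each tumour, with SG-/- tumours (red, 3 points per gene) drawn above SG+/- tumours (blue, 3 points). The grey band spans the array means of the receptor genes taken as silent, from 4.58 to 5.87; Adipoq, Lep, Cidea, Pck1, Ucp1, Aqp7 and Olah have tumours inside it, while Scd1, Srebf1, Fasn and Acly lie far to its right in all tumours.

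The hormone genes of fat cells overlapped between the genotypes, and Adipoq and Lep were above the receptors' 95th percentile on 0 of the 6 arrays, Retn on 4. Adipoq, which encodes adiponectin, was at 6.26, 5.79 and 6.34 in SG-/- tumours and at 6.01, 5.53 and 6.22 in SG+/- tumours. Lep, which encodes the satiety hormone leptin, was at 6.03, 5.73 and 6.44 in SG-/- tumours and at 5.93, 5.67 and 5.96 in SG+/- tumours. In both genes the second tumour of each genotype had the lowest value. Retn, which encodes resistin, was at 7.57, 7.01 and 8.11 in SG-/- tumours and at 7.17, 6.85 and 7.71 in SG+/- tumours, in the same order within each genotype as Adipoq. The differences of the 3 genes were 0.21, 0.21 and 0.32, with standard errors of 0.23, 0.20 and 0.33.

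Among the fat-droplet coat genes, Plin1, Cidec and Plin4 had that same order of tumours within each genotype, and Plin2 and Cidea did not. Plin1, the perilipin of fat cells, was at 6.81, 6.76 and 6.91 in SG-/- tumours and at 6.67, 6.04 and 6.68 in SG+/- tumours. Every SG-/- value lay above every SG+/- value, but by less than 0.1 for the closest pair of tumours, and SG+/- replicate 2 stood well below the rest. The difference was 0.36 (standard error 0.20, interval -0.10 to 0.83), and 0.15 without that tumour. Cidec, whose product fuses droplets into larger ones, was at 6.82, 6.39 and 6.82 in SG-/- tumours and at 6.33, 6.22 and 6.40 in SG+/- tumours, with SG-/- replicate 2 just under the highest SG+/- tumour and a difference of 0.36 (standard error 0.16). Plin4, another perilipin, differed by -0.03 (standard error 0.18). Plin2 had a lower SG-/- mean, with 10.23, 10.64 and 10.18 in SG-/- tumours and 10.88, 10.79 and 10.23 in SG+/- tumours, and the genotypes overlapped. Cidea, a relative of Cidec that is typical of brown fat, differed by -0.21 (standard error 0.21), and Ucp1, the uncoupling protein of brown fat, was at most 6.20 and differed by 0.13. Of 7 further brown fat genes, 2 had a higher and 5 a lower SG-/- mean (median difference -0.021). Their mean level lay between 6.50 and 6.67 in SG-/- tumours and between 6.55 and 6.58 in SG+/- tumours, and 0 of the 7 were above the receptors' 95th percentile on all arrays.

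Car3 and Fabp4 spanned the widest range over the tumours of all 34 genes. Car3, a carbonic anhydrase abundant in fat cells and also made by skeletal muscle, was at 9.89, 8.82 and 10.29 in SG-/- tumours and at 9.07, 6.79 and 9.12 in SG+/- tumours. Fabp4, the fatty acid binding protein of fat cells, which capillary endothelium and macrophages make as well, was at 9.47, 7.73 and 9.31 in SG-/- tumours and at 8.19, 7.07 and 8.27 in SG+/- tumours. In SG+/- replicate 2 both genes were below the 95th percentile of that array's receptors (7.69), so their differences rest partly on a value at background. For both genes SG-/- replicates 1 and 3 were the highest, SG+/- replicate 2 was the lowest, and SG-/- replicate 2 lay below the other 2 SG+/- tumours. The differences were 1.34 for Car3 (standard error 0.68, 95% confidence interval -0.26 to 2.94) and 0.99 for Fabp4 (standard error 0.52, interval -0.24 to 2.22), so neither interval excludes 0. Without SG+/- replicate 2 they were 0.57 and 0.60, and without SG-/- replicate 2 they were 1.76 and 1.54. With limma array weights they were 0.42 and 0.06. A second, dimmer probe set of Car3 gave 6.48, 5.68 and 6.20 in SG-/- tumours and 5.84, 5.31 and 5.76 in SG+/- tumours, again with the second tumour of each genotype lowest.

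The same 2 tumours, SG-/- replicate 2 and SG+/- replicate 2, were the lowest of all 6 in 9 of the 20 adipocyte markers: Adipoq, Lep, Retn, Plin4, Fabp4, Car3, Pck1, Aqp7 and Ucp1. Pck1 encodes the enzyme that feeds glycerol synthesis in fat cells, and Aqp7 the channel through which glycerol leaves them. Over all genes this held for 7.75%. In 12 of the 20 they were the lowest within their own genotype, which held for 11.1% of all genes. This pair of tumours was singled out after the values were seen. Of the 9 markers, Adipoq, Lep, Aqp7 and Ucp1 were above the receptors' 95th percentile on 0 arrays and Pck1 on 1. The median deviation of the adipocyte markers from each gene's own mean was 0.09, -0.12 and 0.19 for the SG-/- tumours in replicate order, against 0.03, -0.31 and 0.05 for the SG+/- tumours. Among the lipogenic genes 1 of 12, Fasn, had these 2 tumours lowest of all 6, and of the fatty acid carriers 0 of 2. Within their own genotype they were lowest in 4 of the 12 (Scd1, Fasn, Olah and Srebf1) and in 1 of the 2 carriers, Fabp3. The receptor floor averaged 4.58, 5.13 and 5.87 in SG-/- tumours and 4.58, 5.63 and 5.50 in SG+/- tumours, in replicate order. The part of background in this pattern was not tested.

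Skeletal muscle genes, which a piece of tumour can carry from the body wall, were lowest in the same 2 tumours. This was so for 9 of 12 muscle markers. Acta1, the skeletal muscle actin, was at 8.89, 6.86 and 9.09 in SG-/- tumours and at 8.88, 7.08 and 8.91 in SG+/- tumours. Myl1, a myosin light chain of fast muscle, was at 8.43, 7.08 and 8.32 in SG-/- tumours and at 8.15, 7.98 and 8.21 in SG+/- tumours. The mean level of the 12 muscle genes ran from 6.24 to 7.55 in SG-/- tumours and from 6.53 to 7.35 in SG+/- tumours. The median genotype difference of the muscle genes was -0.0058. Salivary gland genes also varied within SG-/- tumours: Bpifa2, a parotid secretory protein, was at 13.54, 7.26 and 13.64 in SG-/- tumours and at 6.18, 5.98 and 6.47 in SG+/- tumours, and the mean level of 12 salivary markers ran from 7.79 to 9.34 in SG-/- tumours and from 7.28 to 7.71 in SG+/- tumours. SG-/- replicates 1 and 3, which were high in Car3 and Fabp4, were thus also the tumours high in Bpifa2. Of the 12 salivary markers 10 had a higher SG-/- mean and 2 a lower one, with differences from -2.54 to 5.27. Aqp5 and Car6, the brightest of them, did not have the pattern of Bpifa2. Aqp5 differed by -0.21 (standard error 0.14), without overlap, and Car6 by 0.18 (standard error 0.20), with overlap. The part of attached tissue in the fat-cell values was not tested.

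**Figure D2:**
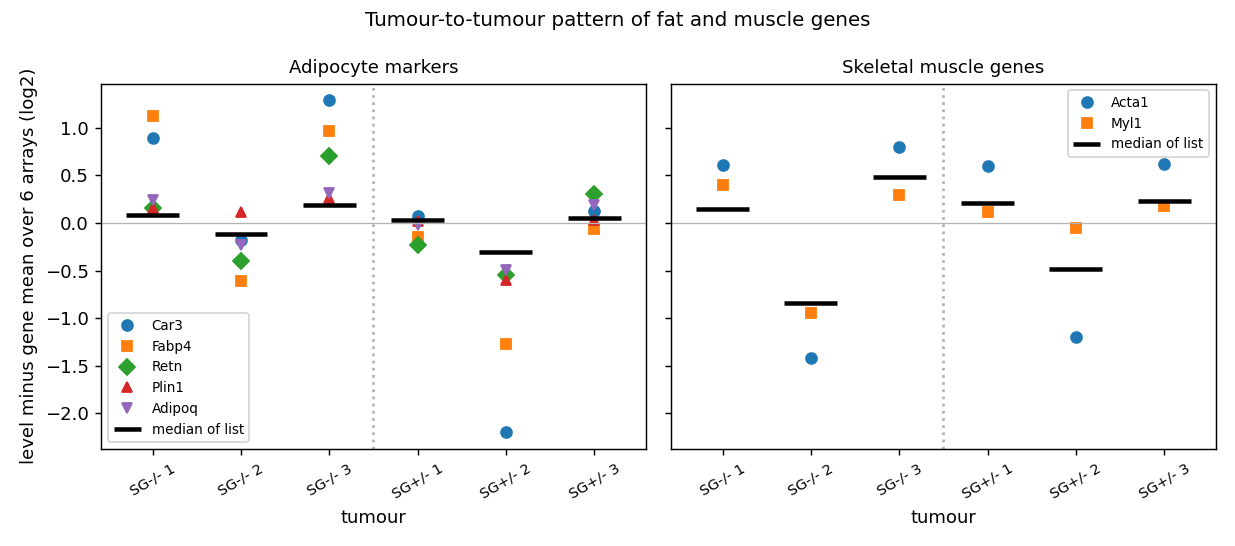
Level of each gene minus its own mean over the 6 arrays (log2, vertical axis) in each tumour (horizontal axis, SG-/- left of SG+/-), for 5 adipocyte markers (left panel) and 2 skeletal muscle genes (right panel), with black bars for the median of the whole list. In both panels replicate 2 of each genotype has the lowest bar of its genotype, at -0.12 and -0.31 for adipocyte markers.

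No gene of the list passed the comparison of genotypes. In the limma fit over all 22180 genes, 0 of the 34 had an adjusted p under 0.05 (adjusted p = 1.00 for each), and 0% of all genes did. Even Srgn, the targeted gene, which ranked 1 by limma p with a difference of -1.52, had an adjusted p of 0.467. Missing the threshold therefore does not show that a gene was unchanged. At an unadjusted p under 0.05 there were 4 of 34, Cd36 and Lpl with higher and Thrsp and Dgat1 with lower values in SG-/- tumours, which is 11.8% against 2.11% of all genes (1.43% higher, 0.685% lower). The tumours of the genotypes did not overlap in 7 of 34 genes, or 20.6%, against 6.03% of all genes. Of these 7, Cd36, Lpl, Plin1 and Scd1 were on the higher side in SG-/- tumours (2.84% of all genes) and Thrsp, Dgat1 and Pnpla2 on the lower (3.19%). The genes were listed with earlier results of these data known, and these shares are a description.

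The 2 classes of genes leaned apart. Of the 20 adipocyte markers 14 had a higher mean in SG-/- tumours and 6 a lower, the median being 0.17. Of the 12 lipogenic genes 4 had a higher and 8 a lower mean, with a median of -0.12. Over all genes the median was -0.014 and 46.3% had a higher mean in SG-/- tumours. Both medians moved with single tumours. For adipocyte markers, leaving out SG-/- replicate 3 gave 0.034 and leaving out SG+/- replicate 2 gave 0.10, while weighting the arrays by their quality gave -0.013. For lipogenic genes, leaving out SG+/- replicate 1 gave -0.0092, SG+/- replicate 2 gave -0.22 and SG-/- replicate 3 gave -0.08.

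**Figure D3:**
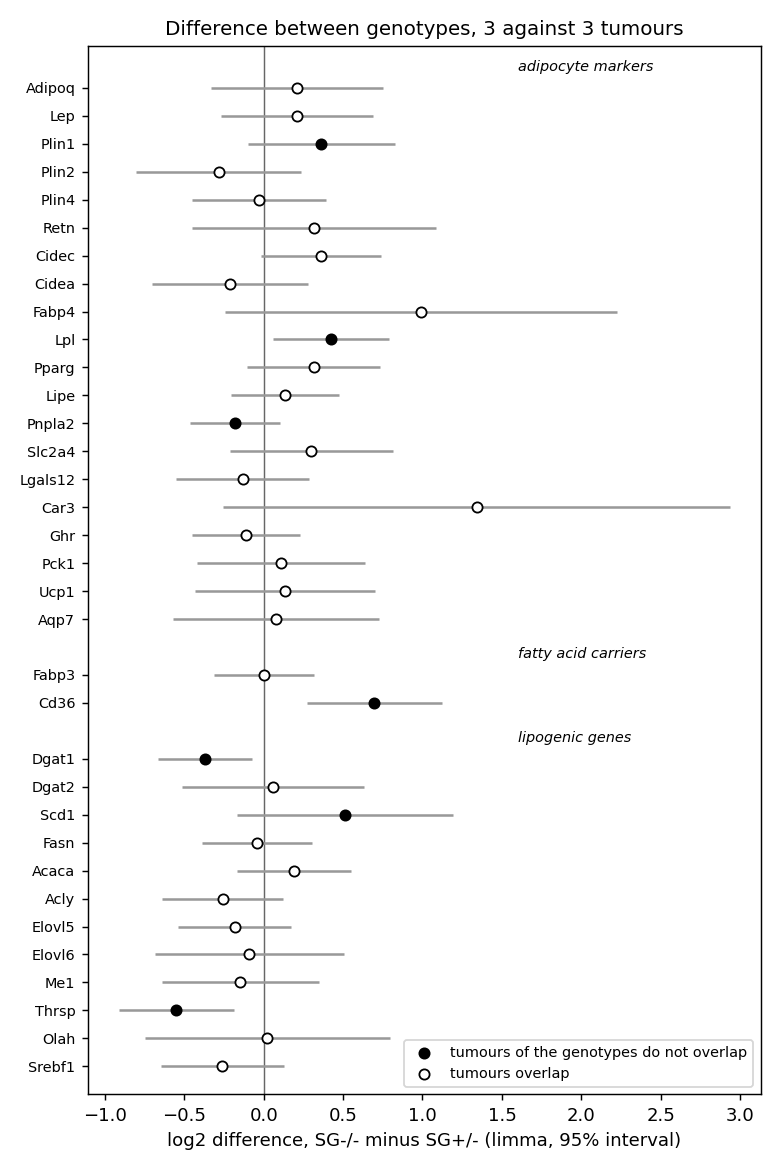
Log2 difference, SG-/- minus SG+/- (horizontal axis), for each of the 34 genes (rows), with 95% confidence intervals from limma on 3 against 3 tumours. Filled circles mark the 7 genes whose tumours did not overlap; only the intervals of Cd36, Lpl, Thrsp and Dgat1 leave out 0, and the widest intervals are those of Car3 and Fabp4.

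The fatty acid uptake genes Cd36 and Lpl were separated toward higher values without serglycin, and Cd36 had the smallest p of the 34. Cd36, a fatty acid transporter and scavenger receptor of fat cells, capillary endothelium, macrophages and milk-making epithelium, was at 7.49, 7.69 and 7.24 in SG-/- tumours and at 6.81, 6.53 and 7.00 in SG+/- tumours. All SG-/- tumours were above all SG+/- tumours. The difference was 0.70 (standard error 0.18, interval 0.27 to 1.12), and Cd36 ranked 51 among all genes by limma p. The difference lay between 0.57 and 0.81 whichever tumour was left out. Cd36 was above the receptors' 95th percentile on only 3 of the 6 arrays, and was below it in SG-/- replicate 3 and in SG+/- replicates 2 and 3. SG-/- replicate 2, low in Car3 and Fabp4, had the highest Cd36 value. Lpl, the lipoprotein lipase that frees fatty acids from blood lipoproteins, was at 8.30, 8.16 and 8.10 in SG-/- tumours and at 7.82, 7.52 and 7.95 in SG+/- tumours. Its groups did not overlap, and the difference was 0.42 (standard error 0.15), between 0.30 and 0.52 with any one tumour left out. Lpl was above the receptors' 95th percentile on 5 of the 6 arrays, and was below it in SG+/- replicate 2, its lowest tumour. Its second probe set lay near the silent level, between 4.65 and 5.07. Fabp3, the heart-type fatty acid binding protein that the mammary gland also makes, had like means. They were 9.81 without serglycin (SD 0.17, n = 3 tumours) and 9.81 in the SG+/- group (SD 0.014, n = 3 tumours). The interval for the difference ran from -0.31 to 0.32.

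Markers of other cells that use Cd36, Lpl and Fabp4 also had higher means. Over all genes 46.3% had a higher SG-/- mean, and in 6.03% the genotypes did not overlap (2.84% on the higher side). Of 10 endothelial markers 10 had a higher SG-/- mean, by a median of 0.36, and in 5 the genotypes did not overlap. Their mean level lay between 7.69 and 8.09 in SG-/- tumours and between 7.45 and 7.68 in SG+/- tumours. Cdh5, the cadherin of endothelial junctions, was at 10.06, 9.83 and 9.60 in SG-/- tumours and at 9.23, 9.26 and 9.47 in SG+/- tumours. Pecam1 and Emcn, also endothelial markers, differed by 0.35 and 0.40 (standard errors 0.17 and 0.22), Emcn with overlap. Of 10 macrophage markers 10 were higher too, with a median difference of 0.35. Their mean level was 9.45, 8.84 and 8.59 in SG-/- tumours and 8.63, 8.66 and 8.41 in SG+/- tumours. SG-/- replicate 1 thus stood highest, and SG-/- replicate 3 lay below SG+/- replicates 1 and 2. Adgre1, which encodes an adhesion receptor typical of mouse macrophages, differed by 0.53 (standard error 0.22). The brighter macrophage markers Lyz2 and Cd14 differed by 0.31 and 0.08 (standard errors 0.26 and 0.22), both with overlap. Of 9 fibroblast and preadipocyte markers 8 were higher, with a median difference of 0.58. Their mean level was 10.05, 9.07 and 9.20 in SG-/- tumours and 9.06, 8.97 and 8.72 in SG+/- tumours, again highest in SG-/- replicate 1. Dcn, the matrix proteoglycan decorin, differed by 0.93 (standard error 0.33). Pdgfra, a receptor of adipocyte progenitors, differed by 0.17 (standard error 0.29), and Col1a1, a collagen chain, by 0.38 (standard error 0.39). The part of these cells in the Cd36 and Lpl values was not tested. Of the 7 fat-cell restricted markers, 5 were higher and 2, Plin4 and Lgals12, lower, and Plin1 was the only one without overlap.

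The promoters of Cd36, Plin1, Thrsp and Fasn are shown because Cd36 and Thrsp had the smallest p in each direction, Plin1 was the fat-cell restricted marker that separated, and Fasn, the central enzyme of the pathway, overlapped between genotypes. They are RefSeq sequences of build GRCm38.p6, from 250 bases before to 50 after the gene start, at chr5:17835847-17836146 for Cd36, chr7:79732727-79733026 for Plin1, chr7:97417501-97417800 for Thrsp and chr11:120824498-120824797 for Fasn, all from the minus strand. Capitals mark matches on either strand to the CCAAT box (CCAAT), bound by the factor NF-Y, to a C/EBP-type site (TTGCNNAA), or to the core site of nuclear receptors (AGGTCA).
Cd36: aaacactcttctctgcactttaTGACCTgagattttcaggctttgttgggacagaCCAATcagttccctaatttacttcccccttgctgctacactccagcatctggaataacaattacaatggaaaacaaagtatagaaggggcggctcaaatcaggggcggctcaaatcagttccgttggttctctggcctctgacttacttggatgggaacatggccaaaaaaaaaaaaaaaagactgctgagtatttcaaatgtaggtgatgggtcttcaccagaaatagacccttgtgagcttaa
Plin1: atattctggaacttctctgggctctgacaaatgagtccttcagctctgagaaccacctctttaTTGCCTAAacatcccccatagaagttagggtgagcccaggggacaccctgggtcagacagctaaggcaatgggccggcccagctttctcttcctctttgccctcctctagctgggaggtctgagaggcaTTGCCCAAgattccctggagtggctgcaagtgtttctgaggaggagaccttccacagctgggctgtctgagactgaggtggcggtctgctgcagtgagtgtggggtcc
Thrsp: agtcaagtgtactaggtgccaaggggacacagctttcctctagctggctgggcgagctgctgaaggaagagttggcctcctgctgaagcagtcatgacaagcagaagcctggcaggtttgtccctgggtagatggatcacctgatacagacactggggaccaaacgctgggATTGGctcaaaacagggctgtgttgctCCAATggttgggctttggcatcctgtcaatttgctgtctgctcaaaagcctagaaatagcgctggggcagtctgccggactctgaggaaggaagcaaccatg
Fasn: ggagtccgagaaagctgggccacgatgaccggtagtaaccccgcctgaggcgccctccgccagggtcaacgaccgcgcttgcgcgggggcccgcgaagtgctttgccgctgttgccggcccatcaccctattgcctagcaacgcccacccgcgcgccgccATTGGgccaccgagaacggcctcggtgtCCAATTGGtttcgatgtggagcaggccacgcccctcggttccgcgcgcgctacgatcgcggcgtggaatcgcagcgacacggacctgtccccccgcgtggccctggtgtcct

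Cd36 has a nuclear receptor core site starting 228 bases and a CCAAT box starting 195 bases before the gene start. Plin1 has 2 C/EBP-type sites, 187 and 58 bases before it. Thrsp has CCAAT boxes at 79 and 52 bases, and Fasn at 90, 62 and 59 bases before the start, where the last 2 of Fasn overlap on opposite strands. Of the 38 listed genes 27 had a promoter in the table. A listed gene was counted if any of its promoters matched. The shares over all are per promoter, with 32851 promoters for 27025 genes, so the counts and shares are unlike measures. The C/EBP-type site was present in 4 of 16 adipocyte markers with a promoter (Cidec, Lep, Plin1 and Pparg), in 0 of 9 lipogenic genes and in 10.8% of all 32851 promoters. The CCAAT box was present in 6 of the 16, in 6 of the 9 (Acly, Elovl5, Fasn, Me1, Srebf1 and Thrsp) and in 37.4% of all promoters. The nuclear receptor core site was present in 4 of the 16, in 2 of the 9 and in 16.3% of all promoters. The DR1 element that PPAR receptors bind (AGGNCA, any base, AGGNCA) and the sterol regulatory element of SREBP targets (ATCAC, any base, CCAC) matched none of the listed genes here and 0.381% and 0.234% of all promoters.

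Regulators and lipases of fat cells showed small differences. Pparg, the master regulator of fat-cell identity, was at 7.36, 7.37 and 7.18 in SG-/- tumours and at 6.78, 6.85 and 7.33 in SG+/- tumours. Only SG+/- replicate 3 reached the SG-/- tumours, and the difference was 0.31 (standard error 0.18). Pnpla2 was at 9.71, 9.62 and 9.76 in SG-/- tumours and at 9.95, 9.79 and 9.89 in SG+/- tumours, without overlap but by a difference of only -0.18 (standard error 0.12, interval -0.47 to 0.10). Lipe, the hormone-sensitive lipase that acts after it, differed by 0.13 (standard error 0.14), with overlap. Slc2a4, the insulin-regulated glucose transporter of fat and muscle, was at 6.83, 7.19 and 6.63 in SG-/- tumours and at 6.83, 6.22 and 6.70 in SG+/- tumours. Its highest and lowest values were those of replicate 2 of each genotype, and the difference was 0.30 (standard error 0.22). Lgals12, a galectin of the fat droplet, and Ghr differed by -0.13 and -0.11, and Pck1 and Aqp7 by 0.11 and 0.08, each with overlap. Of 15 other adipogenic regulators 8 were higher and 7 lower, with a median difference of 0.010 and 0 at an unadjusted p under 0.05. Among them Cebpa, the C/EBP factor of mature fat cells, differed by -0.24 (standard error 0.14) and Ebf1, an early adipogenic factor that B cells also use, by 0.48 (standard error 0.27). Of 18 other adipocyte genes 10 were higher and 8 lower, with a median of 0.018. Gpd1, which makes glycerol phosphate, differed by -0.15, Adig, which encodes adipogenin, by 0.54, and Cav1, the caveolin of fat cells and endothelium, by 0.62 (standard errors 0.12, 0.27 and 0.33).

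Among lipogenic genes, Thrsp and Dgat1 separated the genotypes toward lower values without serglycin. Thrsp encodes Spot 14, a thyroid hormone-responsive protein that promotes fatty acid synthesis in fat, liver and lactating mammary gland. It was at 8.90, 9.06 and 9.33 in SG-/- tumours and at 9.77, 9.59 and 9.58 in SG+/- tumours. No tumours overlapped, and the difference was -0.55 (standard error 0.15, interval -0.91 to -0.19), which is a 1.46-fold lower signal; Thrsp ranked 77 of all genes by limma p. Dgat1, which joins the last fatty acid to make triglyceride, was at 9.52, 9.30 and 9.35 in SG-/- tumours and at 9.79, 9.80 and 9.69 in SG+/- tumours. Here too the groups did not overlap, with a difference of -0.37 (standard error 0.12, interval -0.66 to -0.08). With any one tumour left out, Thrsp differed by between -0.67 and -0.45 and Dgat1 by between -0.43 and -0.33. Dgat2, which catalyses the same step with an unrelated protein, was at 7.73, 7.43 and 7.04 in SG-/- tumours and at 7.20, 7.08 and 7.75 in SG+/- tumours, with overlap and a difference of 0.06 (interval -0.51 to 0.63).

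The core enzymes of synthesis overlapped between genotypes. Fasn, the fatty acid synthase, was at 11.24, 11.17 and 11.30 in SG-/- tumours and at 11.41, 11.03 and 11.38 in SG+/- tumours, a difference of -0.04 (interval -0.39 to 0.31). Acly, which makes cytosolic acetyl-CoA from citrate, was at 11.03, 10.80 and 10.89 in SG-/- tumours and at 11.29, 11.32 and 10.89 in SG+/- tumours. Acaca, which turns acetyl-CoA into malonyl-CoA, was at 9.59, 9.30 and 9.36 in SG-/- tumours and at 9.41, 9.21 and 9.05 in SG+/- tumours. The differences of these neighbours in the pathway were thus -0.26 and 0.19 (standard errors 0.16 and 0.15), both with overlap. The mean of Srebf1 was 11.15 without serglycin (SD 0.16, n = 3 tumours) and 11.41 in the SG+/- group (SD 0.23, n = 3 tumours). The difference was -0.26 (standard error 0.16). Me1, the malic enzyme that supplies NADPH, and the elongases Elovl5 and Elovl6 differed by -0.15, -0.18 and -0.09, each with overlap. Olah, the thioesterase that ends fatty acid synthesis early in lactating mammary gland, stayed near the silent level in 5 tumours, between 5.18 and 5.91. It was at 6.39 in SG+/- replicate 1, still below the 95th percentile of that array's receptors (6.47), and the genotype difference was 0.02. That tumour also had the highest Wap, a whey protein of milk (9.46), but a link of Olah to Wap was not tested. Scd1, which introduces a double bond into saturated fatty acids, was at 12.84, 12.63 and 12.65 in SG-/- tumours and at 12.50, 11.50 and 12.57 in SG+/- tumours. Its groups did not overlap, but the gap to the nearest SG+/- tumour was narrow and SG+/- replicate 2 stood apart: the difference was 0.51 (standard error 0.29) with all tumours and 0.16 without that one. Lalba, the milk protein alpha-lactalbumin, was also lowest in SG+/- replicate 2, at 9.83 against 11.89 to 13.03 in the other tumours.

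**Figure D4:**
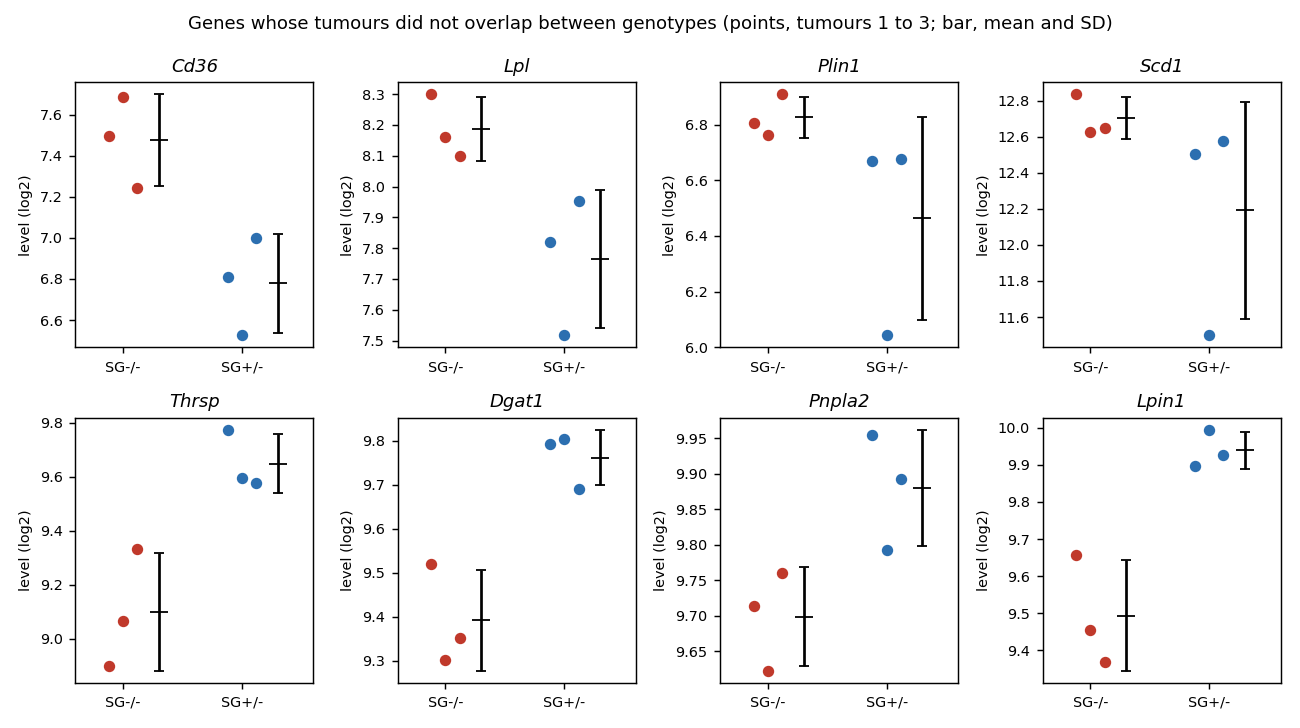
Level (log2, vertical axis, a separate scale for each gene) in 3 SG-/- tumours (red, left) and 3 SG+/- tumours (blue, right) for the 7 listed genes without overlap and for Lpin1, with the mean and SD as a bar beside each group. Cd36, Thrsp, Dgat1 and Lpin1 show a gap between the genotypes, whereas in Plin1 and Scd1 a single SG+/- tumour, replicate 2, sets most of the difference.

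Other genes of lipid metabolism were drawn from lists written for this report. Their counts stand beside 46.3% of all genes with a higher mean in SG-/- tumours. Of 10 measured genes of triglyceride assembly 8 were lower and 2 higher in SG-/- tumours, with a median of -0.093. Lpin1, the lipin phosphatase that makes the diglyceride used by Dgat1, was at 9.66, 9.46 and 9.37 in SG-/- tumours and at 9.90, 9.99 and 9.93 in SG+/- tumours, a difference of -0.45 (standard error 0.13) without overlap. Mogat1, a monoglyceride acyltransferase, differed by -0.33 (standard error 0.14), also without overlap. It was at 6.14, 6.19 and 6.22 in SG-/- tumours and at 6.73, 6.43 and 6.37 in SG+/- tumours. Only in SG+/- replicate 1 was Mogat1 above the receptors' 95th percentile. In this list 2 of the 10 genes did not overlap, against 6.03% of all genes. Gpam, the mitochondrial enzyme that starts glycerolipid synthesis, differed by 0.02. Of 22 other fatty acid synthesis genes 10 were higher and 12 lower, with a median of -0.019. The one with an unadjusted p under 0.05 was Acsl4, which activates long polyunsaturated fatty acids, at 10.81, 10.86 and 11.28 in SG-/- tumours and at 11.87, 11.37 and 11.65 in SG+/- tumours (difference -0.65, standard error 0.19). Acacb, the mitochondrial relative of Acaca, differed by 0.45 (standard error 0.30). Of 12 fatty acid oxidation genes 10 were lower and 2 higher, with a median of -0.18. Acadvl, the very-long-chain acyl-CoA dehydrogenase, differed by -0.38 (standard error 0.14), its long-chain relative Acadl by -0.26 (standard error 0.14) and Cpt1a, the gate of mitochondrial uptake, by -0.23 (standard error 0.26). Cholesterol synthesis, the other branch under SREBP factors, had 9 of 12 measured genes higher and 3 lower, with a median of 0.043; Hmgcs1 and Nsdhl differed by 0.20 and 0.16. In all these lists 0 genes passed the threshold (adjusted p = 1.00 from limma for each gene named).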

How the data were processed

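RNA of 6 snap-frozen PyMT+ breast tumours, 3 SG-/- and 3 SG+/-, was measured on 1 Affymetrix array each. The deposited values are log2 levels of 33793 probe sets, with 0 missing, which the authors made by RMA, a method that corrects background, normalizes quantiles and summarises probes, per the labels and the series description. Expression Console, RMA and limma appear as tools in the submitters' processing notes. Replicates were numbered in accession order and pair no mice, and nothing says how the tumours were sampled, so the spread between arrays may be partly technical. The number of arrays limits the precision.

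Probe sets with 1 symbol (23521) gave 22180 genes, while 1814 probe sets had several symbols and 8458 were not in the annotation table. The brightest probe set stood for each of 1082 genes with more than 1. SG-/- minus SG+/- was tested two-sided in limma 3.58.1 (lmFit, eBayes; R 4.3.3), and p-values were adjusted by Benjamini-Hochberg across the 22180 genes, with 0.05 as the threshold. The test was checked on simulated data. Lists are described by counts and medians, with no test. Members and lists were chosen with earlier results of these data known. Every listed gene is accounted for. Of the pathway lists the first gene and the 2 with the smallest p are named. Examples from the cell type lists were taken from the first gene and the 2 brightest, but not all of these are named. The groups were also compared without dim genes, with renewed quantile normalization, centring, trend and robust eBayes, array weights, the mean of all probe sets, the receptor mean as covariate, and without each tumour. Promoters are RefSeq's. Plots used matplotlib 3.10.9 under Python 3.11.15.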

Additional observations from a re-analysis of the deposited data

How the results depend on the processing

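Under the 13 alternatives, 0 of the 34 genes were called, and the lowest adjusted p of any of them was 0.173 (limma). Over all genes limma called 0, with 469 at an unadjusted p under 0.05; with the receptor mean as covariate it called 1, and with any one tumour left out between 0 and 1 (1 without SG-/- replicate 2). At an unadjusted p under 0.05 the count over all genes was 2569 with array weights and 1200 without SG-/- replicate 3. The adipocyte median was -0.013 with array weights, which weigh SG-/- replicate 2 most (4.95) and SG-/- replicate 3 least (0.197), and between 0.034 and 0.26 with a tumour left out; without dim genes it was 0.30. The lipogenic median stayed below 0 throughout, between -0.22 and -0.0092 with a tumour left out. Of the 34 differences, 19 kept one sign under every alternative run, among them Cd36, Lpl, Plin1, Scd1, Thrsp, Dgat1, Pnpla2, Car3 and Fabp4, and 15 changed it under some. Several alternatives could not change a sign. Where the genotypes did not overlap, neither leaving out a tumour nor weighting the arrays can reverse the difference. Centring moves every difference by the same small amount. Trend and robust eBayes and the omission of dim genes leave each difference as it was. With array weights Fabp4 was 0.06 and Car3 0.42, and the sign changed for Adipoq (-0.15), Lep (-0.092), Plin2 (0.079), Retn (-0.28), Ghr (0.031), Pck1 (-0.14), Ucp1 (-0.20), Aqp7 (-0.20), Dgat2 (-0.023), Olah (-0.034) and Fabp3 (-0.10). It also changed for Dgat2 (-0.028) and Fasn (0.0082) after renewed quantile normalization, for Fabp3 (-0.043) with the mean of all probe sets and for Olah (-0.0026) with the covariate. With a tumour left out the ranges that crossed 0 were Plin4 -0.20 to 0.068, Pck1 -0.075 to 0.23, Dgat2 -0.11 to 0.26, Fasn -0.16 to 0.029, Elovl6 -0.34 to 0.073, Me1 -0.36 to 0.027, Fabp3 -0.097 to 0.058, Ucp1 -0.13 to 0.29, Aqp7 -0.19 to 0.27 and Olah -0.21 to 0.40. The cause was not tested. No paired analysis was possible because the labels give the mice no shared numbers. Signal over background limits Adipoq, Lep, Cidea, Ucp1, Aqp7 and Olah, which were above the receptors' 95th percentile on no array. It also limits Cidec and Pck1 (on 1 of 6), Plin1 and Plin4 (on 2), and Cd36, Pparg, Lipe and Slc2a4 (on 3). Retn, Lgals12 and Dgat2 were above that mark on 4 arrays, and Fabp4, Lpl and Car3 on 5.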

Other observations

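Milk genes, made by the secretory epithelium in which Olah and Fabp3 also act, varied among tumours without separating the genotypes: 5 of 9 had a higher mean in SG-/- tumours and 4 a lower one. Csn3, the kappa-casein, was at 13.14, 13.11 and 13.24 in SG-/- tumours and at 13.25, 12.60 and 13.26 in SG+/- tumours. Wap was at 7.07, 7.17 and 7.69 in SG-/- tumours and at 9.46, 7.91 and 6.81 in SG+/- tumours. SG+/- replicate 2 was thus lowest in Csn3, while the SG+/- tumours spanned the whole range of Wap.

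Skin, sebaceous gland and lymph node can lie beside a mammary gland. Of 6 sebaceous markers 5 had a higher mean in SG-/- tumours, by a median of 0.097, and Scd3, a sebaceous relative of Scd1, differed by 0.16. Of 8 skin epidermis markers 4 were higher and 4 lower. Of 7 B cell and lymph node markers 5 were higher, among them Cd79b, part of the B cell receptor, at 6.92, 6.23 and 7.54 in SG-/- tumours and at 6.49, 6.09 and 6.16 in SG+/- tumours. In all 3 lists the genotypes overlapped in every gene. Of 10 luminal epithelium markers 7 were higher and 3 lower in SG-/- tumours, by a median of 0.068.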
